A study of Mus musculus with 2 samples.

Results

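Hox genes encode homeodomain transcription factors that specify position along the head-to-tail axis. In the mouse they lie in 4 clusters, Hoxa, Hoxb, Hoxc and Hoxd, and are numbered by paralog group, so that low numbers are expressed towards the head and high numbers towards the tail. In skin, Hox genes are known for regional differences and, in the case of Hoxc13, for control of the keratins of the hair shaft. The members described here were all probes of the array, control spots left out, whose gene name was Hox followed by a cluster letter and a paralog number. This rule took 39 genes with 45 probes, out of 34821 names with 55681 probes. Hoxa had 11 genes and 15 probes, Hoxb 10 genes and 11 probes, Hoxc 9 genes and 9 probes, and Hoxd 9 genes and 10 probes.

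The study asked how induction of the transcription factor SOX11 changes gene expression in mouse epidermis after birth. Each of 2 microarrays compared a control pup carrying K14-rtTA alone with a littermate carrying K14-rtTA;TRE-Sox11-FLAG, both of the FVB/N strain, of age P4.5 (postnatal day 4.5) and given doxycycline (Dox) for 12 h. K14-rtTA makes a Dox-dependent activator under the keratin 14 promoter, hence in keratinocytes of the basal layer and hair follicle, and TRE-Sox11-FLAG is a transgene that this activator switches on. Each channel of each array held 1 animal, and the epidermal sheets were separated from dorsal skin with dispase, so appendages still attached to the sheet were part of the sample. Control RNA carried the green dye Cy3 and RNA of the SOX11-induced pup the red dye Cy5, on each array. A positive log2 ratio (SOX11-induced over control) thus means a brighter spot after induction. With no array labelled in the opposite orientation, dye and genotype cannot be told apart at any 1 probe. The study's methods mention a colour swap, which these labels do not show; directions here follow the labels, and an array that had in truth been swapped would have every sign turned.

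A probe was counted as detected in a channel when its spot was well above background by the scanner software. Median local background at the Hox spots was 21.0 and 23.0 scanner units in the control channel and 57.0 and 58.5 in the SOX11 channel, in pairs 1 and 2. Signal over background, the spot's mean brightness divided by its local background, was for this reason compared only within a channel. Neither of the 2 Sox11 probes was above background in any animal, and the sources used here do not say whether the transgene transcript carries these probe sites, so they check nothing about the labels. Keratinocyte markers were detected at 12 of 12 genes in every animal. Of 15 dermal fibroblast markers, 6 were above background in no animal, including Pdgfra, Lum and Twist2, while 8 or 9 were detected in each. Col1a1, Col1a2, Col3a1 and Dcn were among those detected in every animal. In these bulk samples, fewer cells of a type and less RNA per cell cannot be told apart.

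The probes on which the results turn are shown by their last 30 of 60 bases, 5′ to 3′, as deposited. Capitals mark AATAAA, the letters of the common polyadenylation signal, where a probe's last bases hold them. Positions are on mouse build mm9 as the scanner files give them. No mm9 annotation was used here, so exon and UTR positions are not given.
Hoxc9, chr15:102814735-102814794, plus strand: tgttgagaaattggtgtttagagttagttc
Hoxa2, chr6:52112595-52112654, minus strand: gaggcctgcaagaaagtgaccataaattgt
Hoxb3, chr11:96209002-96209061, plus strand: atgttaaactcgtacatatgaggaattgta
Hoxb9, chr11:96137748-96137807, plus strand: ttttcagttgttgcttataagggagggttg
Hoxb4, chr11:96182885-96182944, plus strand: gacaacagaAATAAAtgtttggtttcttgt
Hoxc13, chr15:102759058-102759117, plus strand: aaatgcccatctgaaataggctcctttttt
Hoxd8, chr2:74545171-74545230, plus strand: atcagcgctagatgattgaatataaaatgc

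Over the whole probe, on its own strand, 7 of the 45 Hox probes held AATAAA, against 10.1% of the 55676 probes tested. It was present in 4 of the 15 Hox probes detected in every animal and in 2 of the 22 detected in none. Paralogs share the homeodomain, and 2 of the 45 probes, 1 of Hoxb3 and 1 of Hoxc11, contained codons of its conserved stretch. Across 984 pairs of probes for different Hox genes, however, the longest run of identical bases was 11. The deposited accession list of the Hoxb3 homeodomain probe also names Hoxd3.

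Which Hox genes were measurable in epidermis followed cluster and paralog number. Of the 39 genes, 23 had a probe above background in at least 1 animal, 15 of them in all 4 animals, and 16 had none. The Hoxa, Hoxb and Hoxc clusters had 8 of 11, 8 of 10 and 6 of 9 genes detected in some animal. Hoxd stood apart with 1 of 9, Hoxd8. By paralog number, 5 of 8 genes of groups 1 to 3, 14 of 15 of groups 4 to 8 and 4 of 16 of groups 9 to 13 were detected.

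Among the genes detected in every animal were Hoxa2, Hoxa3, Hoxa5, Hoxa7, Hoxb2, Hoxb3, Hoxb4, Hoxb5, Hoxb6, Hoxb7, Hoxc4, Hoxc5, Hoxc6 and Hoxc13. Hoxa4, Hoxa6, Hoxa9, Hoxb9, Hoxc9 and Hoxd8 were detected in 3 of 4 animals, and Hoxb8 and Hoxc8 in 1. Those detected in no animal were Hoxb1, Hoxd1, Hoxd3, Hoxd4, Hoxd9 and every gene of groups 10 to 13 except Hoxc13, the hair gene. By animal, 18 Hox probes were detected in each control and 22 in each SOX11-induced pup, with the different channel backgrounds given above. The whole array went the same way. Of all 55676 probes tested, 20220 and 20868 were detected in the controls and 21973 and 23087 in the SOX11-induced pups.

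**Figure D1:**
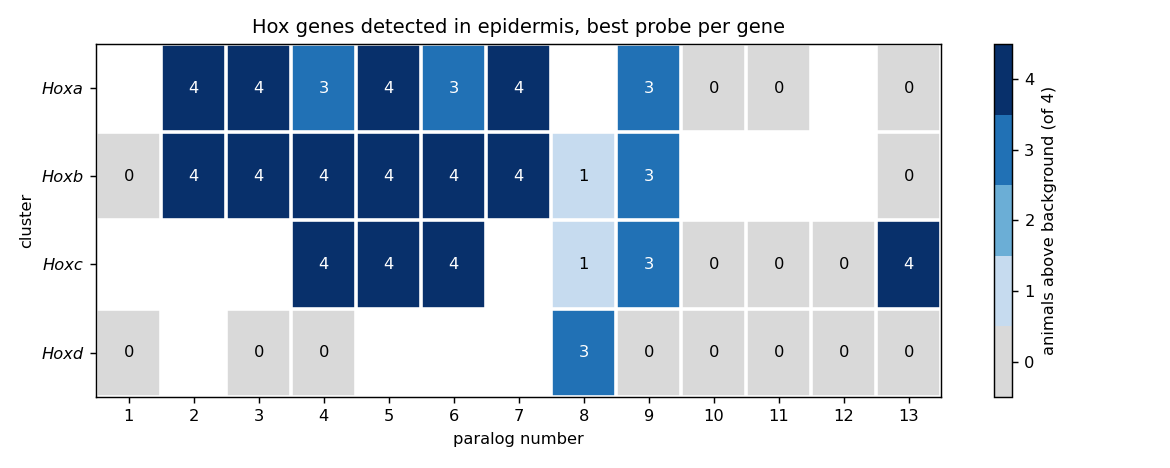
Number of animals, out of 4, in which the best-detected probe of each Hox gene was above background, by cluster (rows) and paralog number (columns), with white squares where the array held no gene of that name or the gene is not shown. Values of 4 fill most of paralogs 1 to 7 of Hoxa, Hoxb and Hoxc, whereas Hoxd has a single gene above 0, Hoxd8.

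After 12 h of SOX11 induction, Hoxc9, Hoxa2, Hoxb3, Hoxb9 and Hoxb4 rose, by mean log2 ratios from 0.64 to 1.29. No Hox probe passed the threshold in the study's methods (adjusted p under 0.05 and log2 ratio past 1.5), which 0.453% of all probes passed. The legend of the study's heat map words the change as past 1.5-fold instead. By that wording, with an adjusted p under 0.05, 5 of 45 Hox probes were higher and 1 was lower. Of all 55676 probes tested, 2.99% were higher and 1.41% lower. Among the 21 Hox probes that each array detected in 1 channel or more, the same 5 and 1 stood against 6.78% higher and 3.21% lower of 21782 such probes. The adjusted p is limma's moderated test with Benjamini-Hochberg adjustment over all probes. An unadjusted p under 0.05 by limma was found for 12 of the 45, and for 11722 of all 55676 probes. Among probes that each array detected in 1 channel or more, it was found for 11 of 21 Hox probes and for 6788 of 21782. With 2 pairs, an exact sign-flip test of a single probe cannot go below p = 0.5, so every call rests on the spread that limma shares across probes.

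The median log2 ratio of the 45 probes was 0.03, with 0.06 in pair 1 and 0.03 in pair 2, beside 0.01 for all probes tested. The highest mean of a probe was 1.29. For the 15 probes detected in every animal the median was 0.24, 13 of 15 had matching signs in the pairs, and the median of the 19095 probes so detected on the whole array was 0.02. Under median centring in place of loess, the median of probes above background moved from 0.04 to 0.51, and that of these 15 Hox probes moved with it to 0.74.

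Hoxc9, a thoracic identity gene known for its part in motor neuron columns, showed the largest mean ratio of any Hox probe. Its log2 ratio was 1.34 in pair 1 and 1.25 in pair 2 (mean 1.29 ± 0.07, SD, n = 2; adjusted p = 0.002 by limma). Signal over background was 2.17 and 2.83 in the controls and 3.14 and 4.5 in the SOX11-induced pups. The gene was dim, and the control of pair 1 was not above background, so its ratio in that pair rests on an unmeasured control.

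Hoxb9, a paralog of Hoxc9 that shapes the ribs, was likewise not above background in the control of pair 1. Its log2 ratio was 0.99 in pair 1 and 0.48 in pair 2 (mean 0.73 ± 0.36, SD, n = 2; adjusted p = 0.046 by limma). Signal over background was 2.45 and 3.1 in the controls and 2.84 and 3.13 after induction. Hoxa9, the third detected gene of paralog group 9, gave 0.35 and 0.03 with an adjusted p of 0.54 by limma. Both risers of group 9 therefore had 3 animals above background.

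Among anterior genes, Hoxa2, which patterns the second pharyngeal arch, rose with little spread. Its log2 ratios were 0.91 and 0.88 (mean 0.89 ± 0.02, SD, n = 2; adjusted p = 0.011 by limma), with signal over background of 3.30 and 3.35 in controls and 4.46 and 4.83 after induction. Hoxb3, which acts in the hindbrain and pharyngeal region, gave 0.59 and 0.93 (mean 0.76 ± 0.24, SD, n = 2; adjusted p = 0.031 by limma). Hoxb4, known for expanding blood stem cells when overexpressed, gave 0.68 and 0.59 (mean 0.64 ± 0.06, SD, n = 2; adjusted p = 0.047 by limma). All of these probes were above background in every animal, and in each the SOX11-induced pup was the brighter of both pairs after normalization.

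Hoxb2, the neighbour of Hoxb3 and a hindbrain gene, had negative ratios in both pairs, -0.74 and -0.51, and just missed the threshold (mean -0.62 ± 0.16, SD, n = 2; adjusted p = 0.056 by limma). Under median centring its mean was -0.11 and it did not pass.

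**Figure D2:**
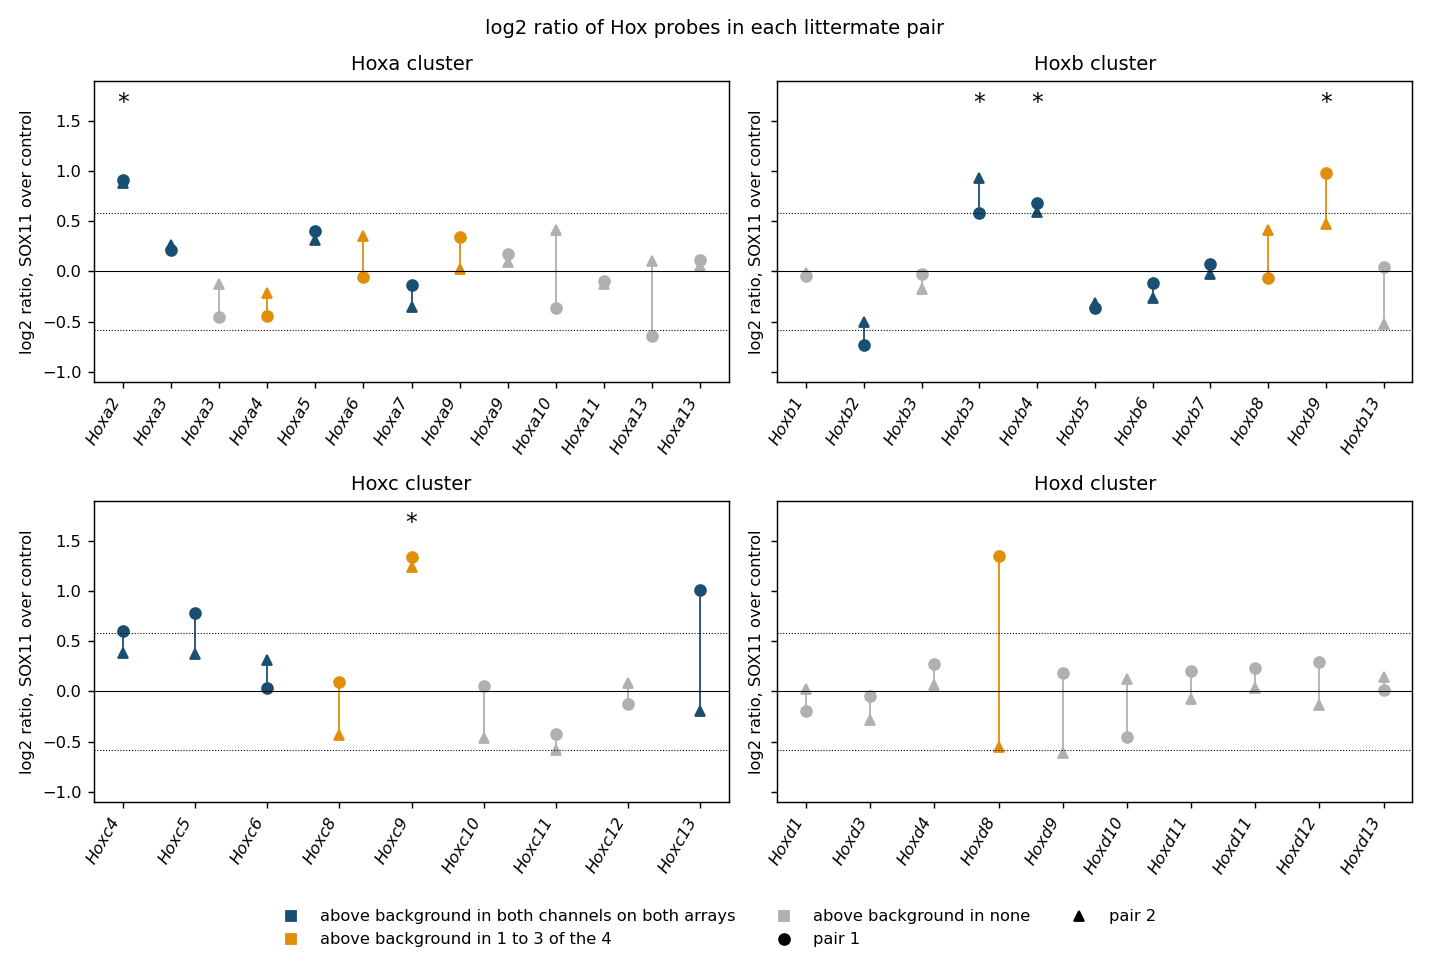
Log2 ratio (SOX11-induced over control) of the Hox probes shown, in pair 1 (circles) and pair 2 (triangles), by cluster and paralog number, coloured by detection. A star marks an adjusted p under 0.05 and dotted lines mark 1.5-fold; the 5 starred probes lie above 0, while Hoxc13 and Hoxd8 split across 0 between the pairs.

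Several of these calls depended on the processing. Hoxa2, Hoxb3 and Hoxc9 passed the 1.5-fold rule with median in place of mean spot signal and in the authors' table, while Hoxb4 and Hoxb9 had adjusted p values from 0.051 to 0.075 by limma there. With an offset of 50, Hoxa2 and Hoxc9 passed the rule. Hoxb3, Hoxb4 and Hoxb9 then fell short of 1.5-fold, at 0.56, 0.58 and 0.50. Under median centring 11 probes were higher and 1 lower, 5 of them shared with the 6; the lower one was Hoxc11, detected in no animal. With Agilent processed signals no Hox probe passed, although 7 were past 1.5-fold at an unadjusted p under 0.05. The log2 ratio of Hoxc9 ran from 0.90 with an offset of 50 to 2.67 with processed signals, and those of Hoxb9 and Hoxb3 reached 1.55 and 1.28 with the latter. The directions of the 5 risers were kept under every one of these settings.

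The other Hox genes detected in every animal did not pass the test. Within Hoxc, the log2 ratios of Hoxc5 were 0.78 and 0.37 and those of Hoxc4 were 0.60 and 0.38, with adjusted p values of 0.084 and 0.107 by limma. Hoxc6, a thoracic gene, gave 0.03 and 0.31. All ratios of these Hoxc genes were positive, and Hoxc4 passed at an adjusted p of 0.024 by limma with an offset of 50, where its log2 ratio was 0.47 and so short of 1.5-fold. Under median centring Hoxc4, Hoxc5 and Hoxc6 passed the 1.5-fold rule at 1.03, 0.88 and 0.74.

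Within Hoxa, Hoxa3, needed for thymus and parathyroid, gave 0.21 and 0.27. Hoxa5, which acts in lung development, gave 0.40 and 0.31. Hoxa7, described in keratinocytes, gave -0.14 and -0.36 and turned to a mean of 0.38 under median centring. None of these had an adjusted p below 0.21 by limma, but under median centring Hoxa3 and Hoxa5 passed the 1.5-fold rule at 0.73 and 0.75.

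Within Hoxb, Hoxb5 gave -0.36 and -0.32, whereas Hoxb6 gave -0.11 and -0.26 and turned to a mean of 0.38 under median centring. Hoxb7 was at 0.07 and -0.03, with signal over background of 13.4 and 14.9 in controls and 11 and 12.4 after induction. Adjacent genes of Hoxb thus included risers at Hoxb3 and Hoxb4 and no call from Hoxb5 to Hoxb8. Of the genes detected in part, Hoxa4, Hoxa6, Hoxb8 and Hoxc8 had mean log2 ratios from -0.33 to 0.18 and no call.

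The 22 probes above background in no animal had mean log2 ratios from -0.50 to 0.17, a median of -0.06, the same sign in both pairs for 11, and no call. Signals at that level carry no order, and nothing about these transcripts is read from them beyond the lack of a detectable spot.

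Genes with more than 1 probe were read at each probe. Of the 6 such genes, 4 had a brighter probe detected in some animals and another in none, and the other 2, Hoxa13 and Hoxd11, had none. The homeodomain probe of Hoxb3, 1888 bases upstream of the probe that rose, was never above background and gave -0.03 and -0.17. A second Hoxa3 probe, named Hoxa3 in the files but with no RefSeq match, lies 30063 bases upstream and was likewise never above background. The call for Hoxb3 thus rests on 1 probe.

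Hoxc13 and Hoxd8 showed the largest disagreement between pairs. Hoxc13, the factor needed for hair shaft keratins, gave a log2 ratio of 1.01 in pair 1 but -0.19 in pair 2 (mean 0.41 ± 0.85, SD, n = 2; adjusted p = 0.380 by limma). Under median centring it passed the 1.5-fold rule, at a mean of 0.97 (adjusted p = 0.008 by limma). Its signal over background was 6.80 in the control of pair 1 and 27 in that of pair 2, and 9.73 and 20.3 in the SOX11-induced pups. In each channel the pup of pair 2 was the brighter. Hoxd8, the single detected Hoxd gene, gave 1.35 and -0.55 (mean 0.40 ± 1.35, SD, n = 2; adjusted p = 0.553 by limma). Its signal over background was 1.83, not above background, in the control of pair 1 and 4.96 in that of pair 2, against 2.70 and 2.80 after induction.

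The 64 hair shaft keratin and keratin-associated protein genes, taken by gene name, also differed between the pairs. Which of these genes are Hoxc13 targets was not tested. Their median log2 ratio was 2.07 in pair 1, with 63 of 64 positive, and -0.30 in pair 2, with 11 of 64 positive. None passed the test, the smallest adjusted p being 0.057 by limma. Summed normalized signal of the list was 130757 scanner units in the control of pair 1 against 1411990 in that of pair 2, and 693092 and 1144550 in the SOX11-induced pups. Summed leukocyte marker signal also differed between pairs, at 38227 and 13995 in the controls and 31942 and 11816 after induction. Melanocyte marker signal was 10565 and 9306 in controls and 14247 and 9385 after induction. The part of these cell types in any Hox ratio was not tested. Of the risers, Hoxb9 was likewise higher in pair 1 than in pair 2, Hoxb3 was higher in pair 2, and Hoxc9, Hoxa2 and Hoxb4 had standard deviations of at most 0.07 between pairs.

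**Figure D3:**
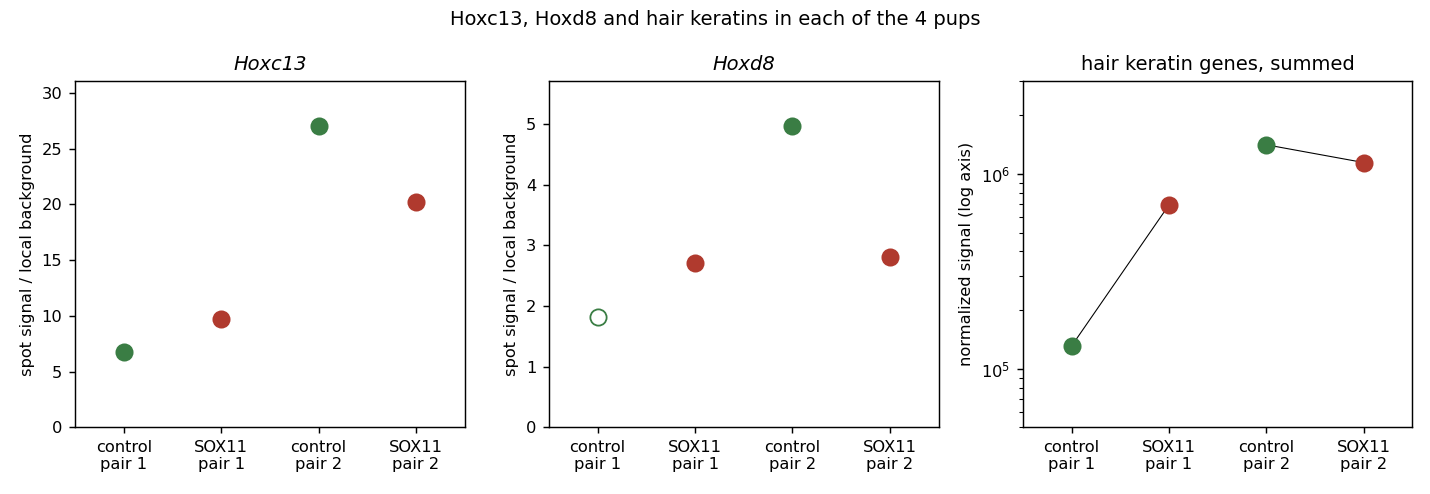
Signal over local background of Hoxc13 and Hoxd8 (linear axes, open circle where not above background) and summed normalized signal of 64 hair keratin genes (log axis) in each of the 4 pups, control in green and SOX11-induced in red. Within each colour the point of pair 1 lies below that of pair 2 in all 3 panels; for the 2 Hox genes, points of different colour come from channels with different backgrounds and are not compared.

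Transcripts of other names lie between the Hox genes, many of them antisense or noncoding. Within the clusters and 20 kb around them were 41 such probes of 24 names, of which 13 matched a RefSeq symbol, 21 probes were on the strand opposite to the Hox genes, and 23 probes were above background in no animal. Their median log2 ratio was 0.05, and 2 probes were higher and 0 lower at the 1.5-fold rule, with 9 at an unadjusted p under 0.05, a share like that of all probes (11722 of 55676). Both that rose were on the opposite strand. Gm11536, at chr11:96196769-96196828 between the Hoxb4 and Hoxb3 probes, gave 0.72 and 1.36 on the log2 scale (mean 1.04 ± 0.45, SD, n = 2; adjusted p = 0.015 by limma) and was detected in every animal.

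Hoxaas2, an antisense RNA of the Hoxa cluster, was the other. Its probe at chr6:52119107-52119166 gave 0.71 and 0.72 (mean 0.71 ± 0.01, SD, n = 2; adjusted p = 0.030 by limma). It was above background in both SOX11-induced pups and in neither control. Taking the dimmest detected signal of each control array as the floor, the change was estimated at 1.57-fold. This estimate depends on the processing. With an offset of 50 the log2 ratio of the probe was 0.45, short of 1.5-fold. The probe shares 40 bases with the Hoxa3 probe on the opposite strand, and Hoxa3 itself passed under median centring alone. HOTAIR, a noncoding RNA of the Hoxc cluster, had 5 probes, of which 1 was above background in 1 animal. Hoxaas3 and Hoxb5os were detected in every animal, with mean log2 ratios of 0.05 and 0.09.

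**Figure D4:**
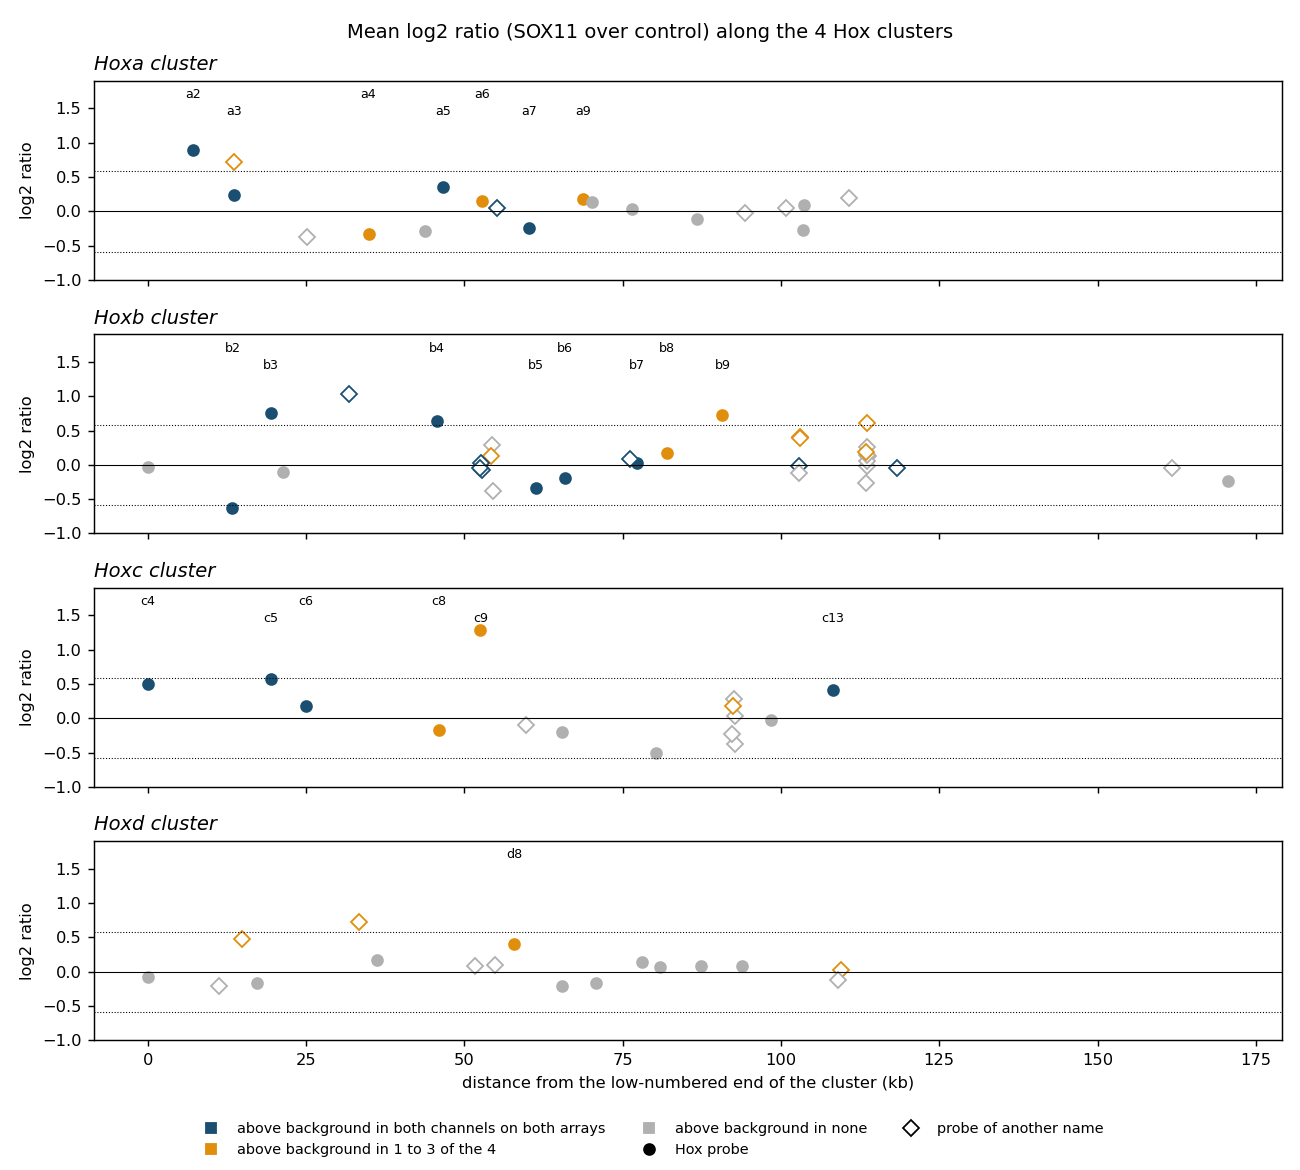
Mean log2 ratio (SOX11-induced over control, 2 pairs) of Hox probes (filled circles) and probes of other names (open diamonds) against distance in kb from the low-numbered end of each cluster, coloured by detection, with dotted lines at 1.5-fold. Some probes past the upper line lie near one another, such as Hoxb4, Gm11536 and Hoxb3, or Hoxa2 and Hoxaas2. Others, such as Hoxc9, lie beside probes that were barely measured. Next to Hoxc9, Hoxc8 was above background in 1 animal and Hoxc10 and Gm4200 in none. Hoxb2 lies past the lower line. Beyond paralog 9 the single detected Hox gene is Hoxc13.

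Promoter sequences from RefSeq (GRCm38.p6), 250 bases before to 50 after the start, were present for 22 of the 39 Hox genes as 24 promoters. SOX proteins bind cores related to AACAAAG, which was found on either strand in 1 of the 24, that of Hoxd4, against 5.85% of 32851 promoters. The shorter ACAAAG, which every AACAAAG contains, was found in 6 of the 24, against 18.7% of all. These belonged to Hoxa3, Hoxa11, Hoxb1, Hoxd3, Hoxd4 and Hoxd11, none of which passed the test. Hoxa2 and Hoxb4 held neither in this window, and Hoxc9, Hoxb3 and Hoxb9 had no entry.

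Hox proteins bind DNA with TALE homeodomain cofactors of the Pbx, Meis and Pknox families, and here Meis1 and Meis2 rose. By the brightest probe of each gene, 2 of 9 cofactors were higher and 0 lower at the 1.5-fold rule, with a median log2 ratio of 0.07; over all genes 3.52% were higher and 1.78% lower. Meis2 gave 1.09 and 1.49 (mean 1.29 ± 0.28, SD, n = 2; adjusted p = 0.003 by limma). Meis1 gave 0.74 and 1.20 (mean 0.97 ± 0.32, SD, n = 2; adjusted p = 0.013 by limma). Both were above background in every animal, as was Meis3, which was at 0.07 and did not pass. With processed signals neither Meis1 nor Meis2 passed.

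Polycomb group proteins keep Hox genes silent outside their domains, and Trithorax group proteins keep them active. Of 29 Polycomb genes 5 were higher and 1 lower, with a median log2 ratio of 0.12. Over all genes by brightest probe 3.52% were higher and 1.78% lower, and over probes above background 6.78% and 3.21%. The same shares apply to the counts of the lists that follow. Ezh2, the methyltransferase of Polycomb repressive complex 2, rose by 1.49 ± 0.22 (SD, n = 2; adjusted p = 0.001 by limma), with 1.33 and 1.64 in the pairs. With processed signals Ezh2 was at 1.45 and did not pass (adjusted p = 0.246 by limma). Cbx2 rose by 0.87 and Bmi1 by 0.74, and Cbx6 fell by 0.93 (-0.38 under median centring, where it did not pass), each of them a subunit of Polycomb repressive complex 1. A second Bmi1 probe was at 0.39 and did not pass. Of 16 Trithorax and related genes 1 was higher and 0 lower, with a median of -0.05. That gene was Mllt3, a subunit of the super elongation complex, at 1.30 ± 0.05 (SD, n = 2; adjusted p = 0.002 by limma), while its other probe, above background in 1 animal, was at 0.46 and did not pass.

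Retinoic acid is a classical inducer of anterior Hox genes. Of 18 genes of its supply, clearance and receptors 2 were higher and 1 lower, with a median of 0.08. Aldh1a1, which makes retinoic acid, was above background in both SOX11-induced pups and in neither control (adjusted p = 0.014 by limma). Taking the dimmest detected control signals as the floor, it rose 1.49-fold. With an offset of 50 its log2 ratio was 0.51, short of 1.5-fold. Rxrb, a retinoid receptor, fell by 0.78 (adjusted p = 0.023 by limma) and stood at -0.11 under median centring. Of 11 other upstream regulators 0 passed the test in limma, with a median of -0.07.

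Of the marker lists of other cell types, 15 fibroblast genes had 1 higher and 2 lower, Fbln1 at 0.62, Thy1, which epidermal T cells also carry, at -1.29 and Dcn at -0.79, and their summed signal was 3578 and 3037 in controls and 2615 and 2937 after induction. Of 12 keratinocyte markers Krt15, a basal and follicle keratin, fell by 1.03. Under median centring Krt15 and Dcn stood at -0.27 and -0.24 and did not pass, and Fbln1, with an adjusted p of 0.050 by limma, lost its call in 5 of 8 alternatives. Lists for melanocytes (9 genes), leukocytes (11), endothelium (7), muscle (9) and nerve (8) had 0 calls in limma, and 4 of 7 endothelial, 6 of 9 muscle and 3 of 8 nerve genes were above background in no animal. Their part in the Hox ratios was not tested.

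**Figure D5:**
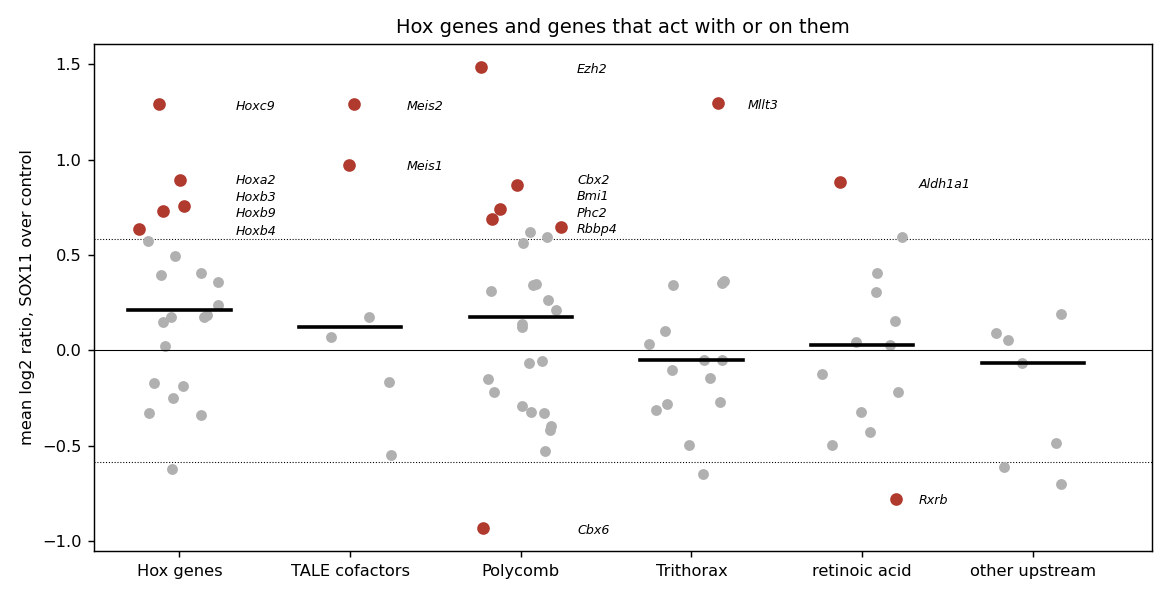
Mean log2 ratio (SOX11-induced over control, 2 pairs) of detected Hox probes and detected genes of 5 related lists, by brightest probe, as far as shown; red points had an adjusted p under 0.05, bars are medians over the points shown, and dotted lines mark 1.5-fold. Most genes of every group lie between the dotted lines, with Ezh2 at 1.49 the highest of those shown and Cbx6 at -0.93 the lowest.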

How the data were processed

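Scanner files of 2 two-colour Agilent arrays were used. The intensity values that the authors deposited are mean and median spot brightness and local background per channel, without normalization, written by Agilent Feature Extraction 10.7.3.1 per the file headers. Processed signals in these files were deposited as background-subtracted, dye-normalized intensity. Detection flags (a score of 0 or 1) are the software's, as deposited. The deposited series table holds the authors' log2 ratios, and it correlated with values recomputed from the scanner files at r = 1 on both arrays, with column medians of 0.0098 and 0.0047.

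Mean signals were corrected by limma's normexp with median background and an offset of 16 and normalized by loess in R 4.3.3 with limma 3.58.1, control spots having weight 0. Outlier spots (194 and 186) were dropped, and spots were averaged per probe. Ratios were fitted with lmFit and eBayes (prior degrees of freedom 8.34) after tests on simulated data. A probe was detected where at least 0.5 of its spots were flagged. The 2 arrays limit the precision, and they were scanned on 1 slide. Named in full were Hox genes with an adjusted p under 0.05, those detected in every animal, and Hoxc13; of each list, at most 4 genes that passed; Hoxd8 was added after its values were seen. The members and lists were chosen with earlier results of these data known. All 39 gene names, and 43 of 45 probes by accession, matched RefSeq. Some items of these sets enter the counts and are not reported here by name. Alternatives varied the offset, signal, scaling, filters and source.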

Additional observations from a re-analysis of the deposited data

How the results depend on the processing

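Of 45 Hox probes, none passed the log2 threshold of 1.5 together with an adjusted p under 0.05 in any setting except median centring, where 1 did (Hoxc9, 1.59); with processed signals Hoxc9 (2.67) and Hoxb9 (1.55) were past 1.5 at adjusted p values of 0.28 and 0.33 by limma. The 6 Hox probes past 1.5-fold became 3 with an offset of 50, 3 with median spot signal, 3 from the authors' table, 12 under median centring and 0 with processed signals. With probes above background alone there were 6, of which 5 were shared (4 higher and 2 lower): Hoxb2 entered and Hoxb9 was lost. The median log2 ratio of the Hox probes went from 0.03 to 0.24 in that setting, by the construction of the filter, and lay from 0.0257 to 0.0585 without replicate 1 and without replicate 2. Over all probes the 252 past the threshold, 81.0% of them higher, became 756 under median centring, with 98.7% higher, and 0 with processed signals, where 9764 had an unadjusted p under 0.05. The genes named from the lists, and Gm11536 and Hoxaas2, kept their directions with processed signals but lost their calls. Means reversed for Hoxa7 (0.38) and Hoxb6 (0.38) under median centring and for Hoxb7 (-0.0028) with processed signals, none of which had passed. The cause was not tested. Detection in every animal was 15 or 16 probes under each call. The fit on ratios within arrays is itself paired, each array holding 1 littermate pair, and no unpaired fit was made. With a single array left, no count of calls can be computed.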
